A study of Mus musculus with 12 samples.

Results

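The genes described here are 10 mRNAs known as white adipocyte genes, followed in the thymus of male C57BL/6 wild-type mice: Adipoq, Lep, Cfd, Plin1, Plin4, Cidec, Fabp4, Cd36, Lpl and Pparg. They are 10 of 22843 genes in the mRNA table, and each value is the sum of the estimated counts over all transcripts with that gene symbol. The mice were 2 weeks old (2W), 6 weeks old (6W) or 3 months old (3M), were otherwise untreated, and gave 2 biological replicates at each age. Total RNA of the whole thymus was sequenced in 2 ways, as ribosomal RNA-depleted long RNA and as small RNA, so that each age has 2 libraries of each kind. The study asked what accompanies the growth of the thymus from 2W to 6W and its decline from 6W to 3M. The genes were chosen by their own counts across these ages, which were already known. Their differences between ages are therefore a description and carry no test. Genes and miRNAs outside the 10 were tested, but their lists, too, were chosen with earlier results of these data known.

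White adipocytes store triglyceride in a single large droplet, take up fatty acids that are released from lipoproteins in the capillary, and secrete hormones that report on the fat store. The ageing thymus loses lymphoid tissue and is known to gain fat within and around its lobes. Several of the 10 genes are nearly restricted to adipocytes, whereas Cd36, Lpl, Fabp4 and Pparg are also used by macrophages, capillary endothelium or other cells. In bulk tissue, fewer cells of a type and less RNA per cell cannot be told apart.

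The long RNA libraries held 16519753 to 22553481 estimated mRNA counts and the small RNA libraries 9181478 to 10994118 miRNA tag counts. Values between libraries are given as CPM, counts per 1000000 of the library size scaled by the trimmed mean of M values (TMM). Thymocyte markers fixed as a list (Cd3e, Cd4, Cd8a, Rag1 and 6 others) summed to 12589 to 17545 CPM and thymic epithelial markers (Foxn1, Psmb11, Prss16 and 7 others) to 1700 to 2264 CPM. Every marker of both lists was found in every library, but Rag1 gave 7538 to 11172 CPM of the first sum, and Foxn1 was at 13.8 to 28.1 CPM. The 10 adipocyte genes together took 113 and 157 CPM at 2W, 286 and 275 CPM at 6W, and 659 and 326 CPM at 3M. In the first 3M library this was 0.0653% of all mRNA counts. That library stood above its replicate for each of the 10 genes, and values with and without it are given below. The lowest counts belonged to Lep, with 6 and 4 at 2W, whereas Adipoq had 47 and 61. All 10 genes passed the filter on low counts, Lep without the help of its 2W libraries.

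Of the 10 genes, 8 have entries in the RefSeq promoter table (mouse GRCm38.p6), and Fabp4 and Lpl do not. The 250 bases before the start of Adipoq, Lep and Plin1 are shown as examples of the secreted and droplet coat genes whose promoters hold different short motifs. Searched on both strands were TTGCNNAA (reverse TTNNGCAA), a core of the site of C/EBP factors, which drive adipocyte differentiation, CCAAT (reverse ATTGG), and TATAAA (reverse TTTATA). Capitals mark a match, and each sequence reads 5′ to 3′ on the strand of the gene. The windows are chr16:23146286-23146535 (plus strand) for Adipoq, chr6:29059971-29060220 (plus strand) for Lep and chr7:79732777-79733026 (minus strand) for Plin1.
Adipoq: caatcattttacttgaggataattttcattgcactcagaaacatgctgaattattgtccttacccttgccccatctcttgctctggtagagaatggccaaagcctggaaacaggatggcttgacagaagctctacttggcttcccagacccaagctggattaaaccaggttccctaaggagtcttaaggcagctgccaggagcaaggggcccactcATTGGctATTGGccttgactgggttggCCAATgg
Lep: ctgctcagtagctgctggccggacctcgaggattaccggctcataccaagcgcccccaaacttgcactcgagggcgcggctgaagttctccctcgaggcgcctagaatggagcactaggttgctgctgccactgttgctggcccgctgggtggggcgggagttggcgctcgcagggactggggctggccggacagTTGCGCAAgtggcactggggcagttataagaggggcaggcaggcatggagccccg
Plin1: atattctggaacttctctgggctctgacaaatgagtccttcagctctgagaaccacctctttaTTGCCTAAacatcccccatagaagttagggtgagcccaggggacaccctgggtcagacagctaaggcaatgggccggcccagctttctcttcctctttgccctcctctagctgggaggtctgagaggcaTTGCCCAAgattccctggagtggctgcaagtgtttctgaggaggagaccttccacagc

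The C/EBP-type letters lay 55 to 48 bases before the start in Lep, and 187 to 180 and 58 to 51 bases before it in Plin1. They were also present upstream of Cidec and of one of the Pparg starts, which makes 4 of the 8 genes, against 9.56% of all 32851 promoter windows of the same length. Adipoq held none of them and had 3 CCAAT matches, beginning 34, 27 and 7 bases before the start. CCAAT letters were found for 4 genes (Adipoq, Cd36, Plin4 and Pparg), against 33.8% of all windows, and TATAAA letters for Pparg alone, against 12.4%. Genes with several starts had more than 1 window, 11 in all, and so more chances of a match. A match is a run of letters and not a measured binding site.

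Among the secreted factors, Adipoq encodes adiponectin, the most abundant hormone of fat. Its level was 2.97 and 3.74 CPM at 2W, 19.3 and 18.6 CPM at 6W, and 51.2 and 23.2 CPM at 3M. The 3 ages did not overlap, and the 3M libraries lay furthest apart. The fitted log2 fold change was 2.50 ± 0.39 (standard error, SE) from 2W to 6W and 0.97 ± 0.34 from 6W to 3M, and 3M was 11.0-fold above 2W.

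Cfd encodes complement factor D, or adipsin, a serine protease secreted by fat. It measured 7.14 and 4.04 CPM at 2W, 47.3 and 46.0 CPM at 6W, and 116 and 58.2 CPM at 3M. Again no libraries of different ages overlapped. This was the widest span of the 10 genes, with a log2 fold change of 3.06 ± 0.40 from 2W to 6W and a 15.6-fold difference between 3M and 2W.

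Lep encodes leptin, the hormone by which fat signals energy stores to the brain. It was scarce, at 0.38 and 0.25 CPM at 2W, 1.16 and 2.12 CPM at 6W, and 4.15 and 1.03 CPM at 3M. Both 6W libraries were above both 2W libraries, while the second 3M library was below both 6W libraries. The log2 fold change was 2.38 ± 0.81 from 2W to 6W and 0.64 ± 0.68 from 6W to 3M, with the largest errors of the set.

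The lipid droplet coat was represented by Plin1 and Plin4, perilipins that cover the droplet and control access of lipases to it, and by Cidec, which lets small droplets fuse into a large one. Plin1 was at 2.91 and 4.35 CPM at 2W, 10.9 and 11.8 CPM at 6W, and 38.5 and 20.6 CPM at 3M. Plin4 was at 4.87 and 4.23 CPM, then 20.4 and 14.3 CPM, then 45.1 and 28.7 CPM. Cidec was at 1.90 and 3.06 CPM, then 13.8 and 12.5 CPM, then 26.2 and 17.6 CPM. For all 3 coat genes, each 6W library was above each 2W library and each 3M library above each 6W library. From 2W to 3M their log2 fold changes were nearly equal, at 3.02 ± 0.35 for Plin1, 3.02 ± 0.29 for Plin4 and 3.13 ± 0.30 for Cidec. The steps differed, since Cidec gained 2.40 by 6W and 0.73 afterwards, and Plin1 gained 1.65 and then 1.37.

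Fatty acid uptake and transport was represented by Lpl, the lipase that releases fatty acids from lipoproteins, Cd36, a membrane protein that takes them up, and Fabp4, which binds them in the cytosol. Fabp4 was at 24.3 and 24.0 CPM at 2W, 42.6 and 50.9 CPM at 6W, and 68.4 and 41.1 CPM at 3M. Lpl was at 34.3 and 56.6 CPM, then 84.6 and 72.4 CPM, then 183 and 75.3 CPM. Cd36 was at 28.4 and 50.7 CPM, then 40.5 and 38.1 CPM, then 113 and 52.4 CPM. For Fabp4 and Lpl the 6W libraries were above the 2W libraries and the 3M libraries overlapped those of 6W. For Cd36 the 2W and 6W libraries overlapped and both 3M libraries were higher than either. The log2 fold changes from 2W to 3M were 1.18 ± 0.24 for Fabp4, 1.06 ± 0.40 for Cd36 and 1.51 ± 0.43 for Lpl, and that of Cd36 from 2W to 6W was -0.01 ± 0.40.

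Pparg encodes the nuclear receptor that directs adipocyte differentiation and binds near many of the other genes. Its level was 5.50 and 5.76 CPM at 2W, 5.72 and 8.12 CPM at 6W, and 12.5 and 7.52 CPM at 3M. The 2W and 6W libraries overlapped, as did those of 6W and 3M, while both 3M libraries were above both 2W libraries. It had the smallest difference of the set between 2W and 3M, a log2 fold change of 0.83 ± 0.30.

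**Figure D1:**
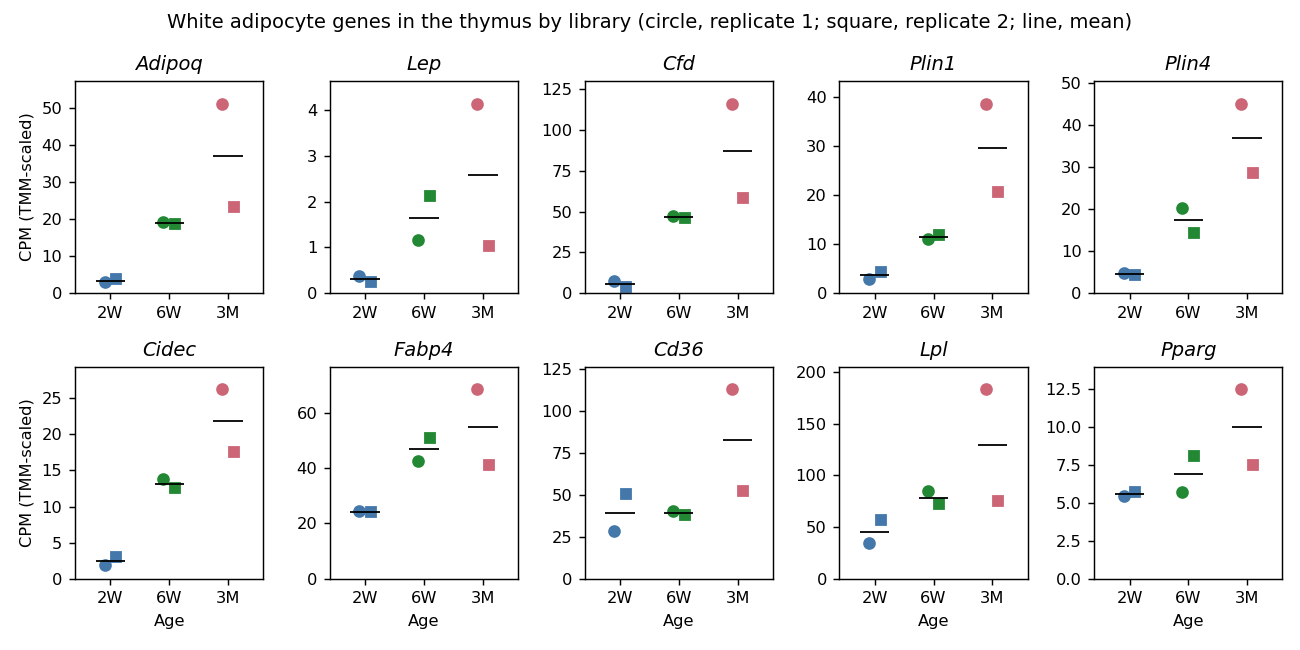
TMM-scaled CPM of the 10 genes in each of the 6 long RNA libraries, by age (2W, 6W, 3M), with linear axes that start at 0 and differ between panels. Circles are replicate 1, squares replicate 2 and lines the mean of the 2 libraries, and the first 3M library is the highest point of every panel.

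Over the 10 genes, the median log2 fold change was 1.79 from 2W to 6W, 0.82 from 6W to 3M and 3.02 from 2W to 3M, against -0.01, 0.02 and -0.03 over all 14805 genes tested. The first 2 comparisons share the 6W libraries and are set side by side only. The libraries did not overlap, with the later age higher, for 8 of 10 genes from 2W to 6W (28.0% of all genes), for 6 of 10 from 6W to 3M (25.9%) and for 10 of 10 from 2W to 3M (27.7%). The libraries of the later age lay wholly below for 0 of 10 in each comparison, against 29.8%, 23.3% and 24.0% of all genes. Log2 fold changes over 1 were found for 6, 3 and 9 genes in that order, against 6.52%, 2.76% and 9.46% of all genes. Because the genes were picked with these contrasts known, the counts describe the choice and nothing is read from them. The members nearest a log2 fold change of 1 from 2W to 3M were Cd36 at 1.06 and Pparg at 0.83.

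**Figure D2:**
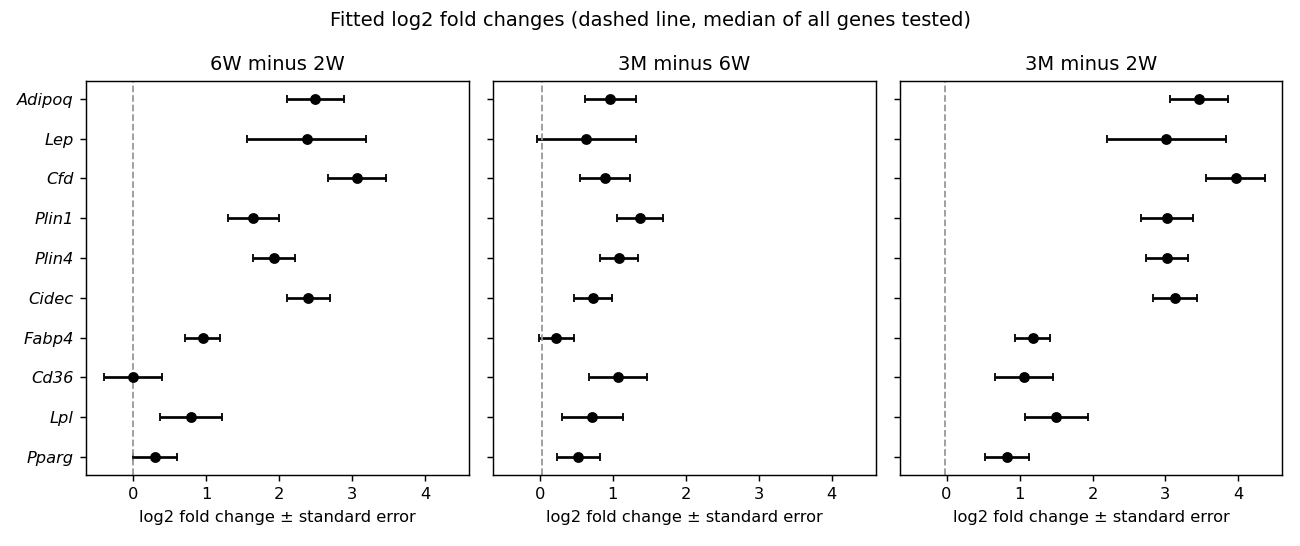
Fitted log2 fold changes of the 10 genes in 3 comparisons of ages, with bars of 1 standard error. The dashed line is the median of all 14805 genes tested, and the secreted and droplet coat genes lie between 1.65 and 3.06 for 6W minus 2W, to the right of the other 4 genes.

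Levels can be compared between genes only per length, for which the FPKM of the transcripts of each gene were summed. At 2W the order was led by Fabp4 at 24.0 ± 0.23 FPKM (SD, n = 2), followed by Cd36 at 12.7 ± 5.13, Lpl at 12.0 ± 3.91 and Cfd at 5.55 ± 2.08 FPKM. Then came Pparg at 2.76 ± 0.01, Adipoq at 2.38 ± 0.47, Cidec at 1.89 ± 0.69, Plin1 at 1.72 ± 0.11, Plin4 at 0.70 ± 0.06 and Lep at 0.085 ± 0.021 FPKM. Neighbours whose libraries overlapped at 2W were Cd36 and Lpl, Adipoq and Cidec, and Cidec and Plin1. Of the 4 genes also used outside adipocytes, Fabp4, Cd36 and Lpl held the top 3 places at 2W and Pparg came after Cfd.

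At 6W Fabp4 (49.3 ± 5.88 FPKM) and Cfd (49.2 ± 1.40 FPKM) overlapped at the top. Adipoq, at 13.9 ± 0.46 FPKM, overlapped Cd36 at 13.5 ± 0.43 FPKM, and Cidec (9.63 ± 0.60) and Plin1 (5.78 ± 0.99) were now above Pparg (3.57 ± 0.91). At 3M Cfd led at 90.5 ± 40.3 FPKM, before Fabp4 at 57.1 ± 18.8, Lpl at 35.9 ± 17.1, Cd36 at 28.5 ± 13.4 and Adipoq at 26.8 ± 13.7 FPKM. Cidec stood at 15.9 ± 4.09, Plin1 at 13.6 ± 5.73, Plin4 at 6.00 ± 1.74, Pparg at 5.17 ± 1.75 and Lep at 0.74 ± 0.61 FPKM. The 3M libraries were so far apart that only 2 steps of that order, Plin1 to Plin4 and Pparg to Lep, separated the libraries of neighbouring genes.

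**Figure D3:**
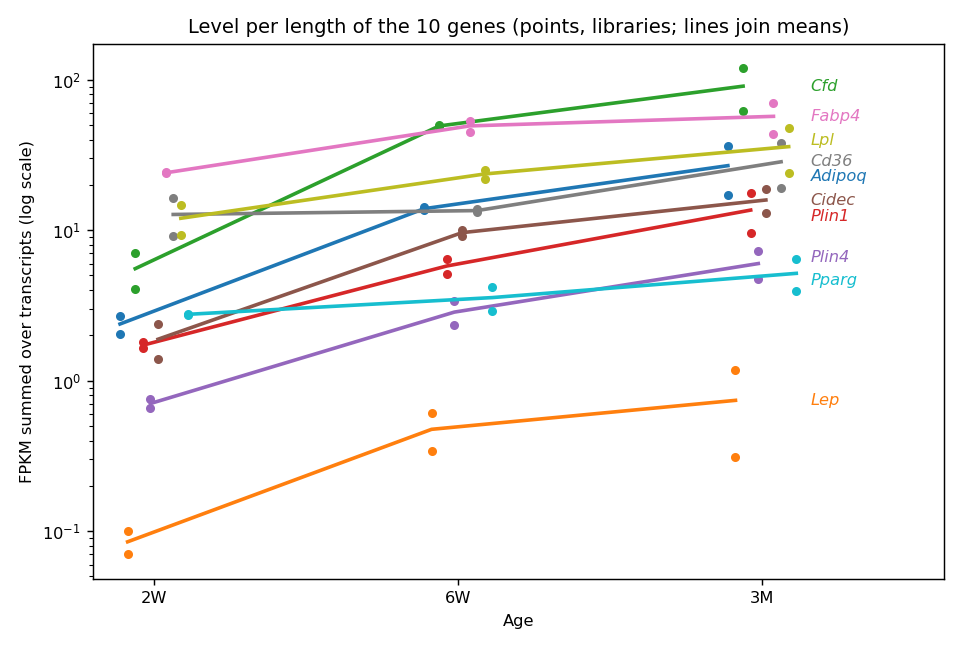
FPKM of the 10 genes, summed over transcripts, on a log scale by age. Points are libraries and lines join the means of 2 libraries per age, and Cfd moves from the fourth place at 2W to the first at 3M.

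The gene sums combine 1 transcript for Fabp4 up to 7 for Plin1 and Cd36. Adipoq and Lep were carried by 1 transcript each, with 99.9% of the estimated counts of Adipoq in ENSMUST00000023593. Cidec changed in its transcripts, since ENSMUST00000113089 was estimated at 0 and 0 counts at 2W, 154 and 172 at 6W, and 226 and 228 at 3M. In the same libraries ENSMUST00000032416 of Cidec had 19.6 and 37.8 counts at 2W, 53.6 and 31.0 at 6W, and 87.9 and 58.4 at 3M. The split was unstable for Plin4, where ENSMUST00000190703 was estimated at 17.5 and 0 counts at 2W, 0 and 140 at 6W, and 587 and 287 at 3M. Estimates for transcripts that share exons are uncertain, and for this reason the comparisons use gene sums. Of the 6300 circRNAs in the circRNA table, 6082 have a named source gene, and for 0 of them it is one of the 10 genes. The long RNA libraries, from which the circRNAs were counted, held 10663 to 21914 junction counts, so that scarce circles could have been missed.

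The 2 libraries of one age were also compared, as a description, since the genes were chosen with the values of each replicate known. At 3M the first library was above the second for 10 of 10 genes, with a median log2 difference of 0.95 and a range from 0.58 (Cidec) to 1.91 (Lep). Over all genes tested, 52.6% were higher in the first 3M library, the median was 0.02, and 15.6% exceeded 0.5. At 2W the first library was above the second for 4 of 10 genes (median -0.19), and at 6W for 6 of 10 (median 0.05). With 2 libraries this has no test.

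**Figure D4:**
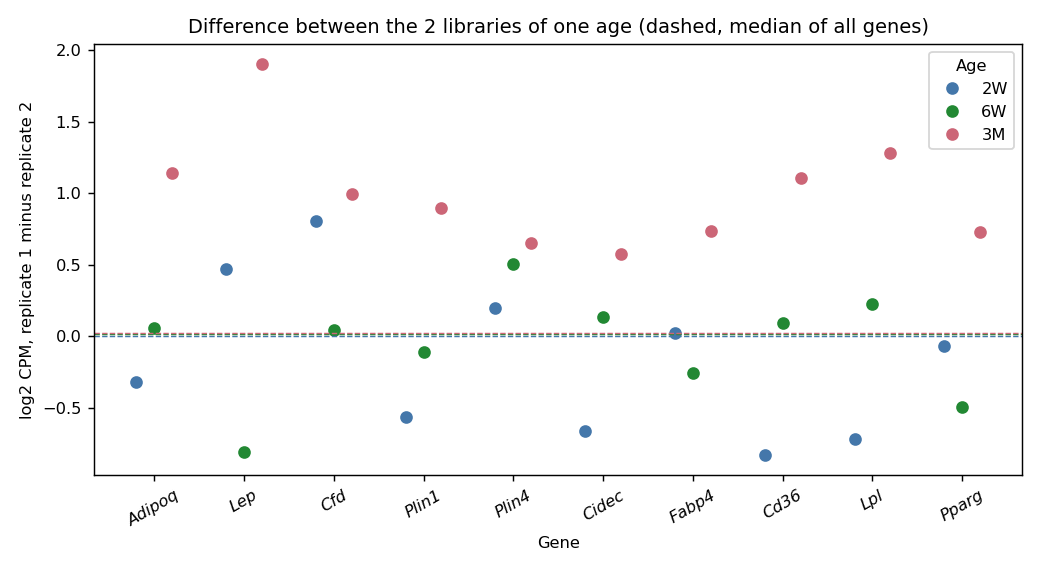
Difference in log2 CPM between replicate 1 and replicate 2 of the same age for each of the 10 genes. Colours are ages and dashed lines the median of all genes tested, and at 3M all 10 genes lie between 0.58 and 1.91, above every line.

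Other lists differed between the same 3M libraries. Fatty acid synthesis genes were higher in the first library for 6 of 6 (median log2 difference 1.33), with sums of 4871 and 1888 CPM, lipolysis genes for 8 of 8 (median 0.61) and triglyceride synthesis and glucose uptake genes for 11 of 12 (median 0.60). Adipogenic transcription factors were higher in it for 4 of 12 (median -0.17), and Cebpa stood at 38.0 and 37.4 CPM. Red blood cell markers were lower in it for 6 of 6 tested (median -2.28), with sums over 8 markers of 511 and 2167 CPM. The part of these cells in the differences among the 10 genes was not tested.

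Without the first 3M library the step from 6W to 3M shrank. The median over the 10 genes fell to 0.31, the log2 fold changes of Lep (-0.66), Fabp4 (-0.18) and Lpl (-0.05) turned negative, and 0 of 10 were over 1, in place of 3. Without the second 3M library the median was 1.27 and 7 of 10 were over 1. Between 2W and 3M all 10 stayed positive without the first 3M library, between 0.43 (Cd36) and 3.41 (Cfd), the median was 2.13 and 6 of 10 were over 1. These 6 were the secreted and droplet coat genes. For Adipoq, 3M was 7.02-fold above 2W without that library, in place of 11.0-fold, and its log2 fold change from 6W to 3M was 0.30 in place of 0.97. The log2 fold change of Lep from 2W to 3M was 1.73 in place of 3.01, and 3.67 without the second 3M library. That of Lpl was 0.75 in place of 1.51 without the first. The log2 fold change of Cd36 from 6W to 3M was then 0.42 in place of 1.07. The step from 2W to 6W does not use the 3M libraries and its median was 1.80 in that fit.

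Other genes of the adipocyte were taken from lists of secreted and surface proteins, lipolysis, triglyceride synthesis and glucose uptake, 30 genes in all, together with 47 genes of 5 further lists. The lists were chosen with earlier results of these data known, so their counts beside the shares of all genes are no independent support. The 77 genes were tested with edgeR's quasi-likelihood F test, and adjusted p-values are those of Benjamini and Hochberg over all 14805 genes. From 2W to 3M, 28 of the 77 genes rose at an adjusted p under 0.05 and 0 fell, where 7.91% of all genes rose and 3.09% fell (11.0% together). Of the 28, Adig and Elovl3 would not have been tested without the 3M libraries. From 2W to 6W, 6 of 77 rose and 0 fell, against 1.47% and 0.263% of all genes, which makes 1.74% together. From 6W to 3M the count was 0 of 77, with 21 at an unadjusted p under 0.05, 7 called by DESeq2 and 0 by limma on log2(FPKM + 0.1), and 1 of the 14805 genes (0.00675%) was called. The median log2 fold change of the 77 genes was 0.48, 0.55 and 1.02 from 2W to 6W, from 6W to 3M and from 2W to 3M.

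The counts leaned on single libraries. From 2W to 6W, 0 of 77 were called without either 2W library or either 6W library, and 14 without either 3M library. For 2W to 3M the count was 5 without the first 2W library, 10 without the second, 14 without either 6W library, and 26 and 30 without the first and second 3M library. From 6W to 3M, 5 were called without the second 3M library. Leaving out a library leaves its age with 1, which is then assumed to vary like the others. Calls of all genes moved too, from 239 to 1741 from 2W to 3M in these fits against 1629 in the full one.

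Of the 10 secreted and surface genes, 3 rose from 2W to 3M. Retn encodes resistin, an adipocyte hormone of the mouse, and measured 0.63 and 0.49 CPM at 2W, 4.41 and 2.78 CPM at 6W, and 17.6 and 5.06 CPM at 3M (log2 fold change from 2W to 3M 4.31 ± 0.70, adjusted p = 0.016). Car3, a carbonic anhydrase abundant in fat, was at 13.1 and 15.0 CPM, then 84.7 and 77.9 CPM, then 225 and 89.7 CPM, and rose both from 2W to 6W (2.54, adjusted p = 0.044) and from 2W to 3M (3.49, adjusted p = 0.0084). The third was Adig, which like Elovl3 below passed the filter on low counts only with the help of its 3M libraries, where it is high. The calls of Retn and Car3 from 2W to 3M were lost without either 2W library (adjusted p up to 0.087 and 0.062), and that of Car3 from 2W to 6W without any 2W or 6W library (up to 0.25).

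Of the 8 lipolysis genes, 4 rose from 2W to 3M. Mgll encodes monoglyceride lipase, which completes the breakdown of triglyceride, and was at 16.9 and 19.9 CPM at 2W, 30.3 and 25.9 CPM at 6W, and 56.1 and 48.2 CPM at 3M (log2 fold change 1.50, adjusted p = 0.0062). Lipe, the hormone-sensitive lipase, went from 14.3 and 14.0 CPM at 2W to 48.5 and 27.3 CPM at 3M (1.42, adjusted p = 0.023). Mgll was called in all 6 fits that left out 1 library, and Lipe only in the 2 without a 3M library (adjusted p up to 0.11).

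Of the 12 genes of triglyceride synthesis and glucose uptake, 9 rose from 2W to 3M and 1, Mrap, also rose from 2W to 6W. The largest changes were those of Agpat2, an acyltransferase of triglyceride synthesis, and Gpd1, which supplies the glycerol backbone. Agpat2 stayed at 2.21 to 3.75 CPM at 2W and 6W and was at 24.0 and 7.92 CPM at 3M (2.60, adjusted p = 0.029). Gpd1 was at 7.90 and 27.1 CPM at 2W, 31.7 and 47.0 CPM at 6W, and 146 and 61.4 CPM at 3M (2.57, adjusted p = 0.049). The call of Agpat2 was lost without any 2W or 6W library (adjusted p up to 0.15), and that of Gpd1 without any library but the second 3M one (up to 0.14).

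Of 12 adipogenic transcription factors other than Pparg, 3 rose from 2W to 3M. Cebpa, which acts with Pparg in adipocyte differentiation, was at 10.4 and 12.4 CPM at 2W, 20.7 and 19.2 CPM at 6W, and 38.0 and 37.4 CPM at 3M. Its libraries were close at each age, and it rose from 2W to 6W (0.81, adjusted p = 0.046) and from 2W to 3M (1.72, adjusted p = 0.0048). Klf15, a factor of late adipocyte differentiation, was at 4.49 and 4.17 CPM, then 8.82 and 7.85 CPM, then 12.5 and 13.4 CPM (2W to 3M 1.58, adjusted p = 0.0069). Both were called from 2W to 3M in all 6 fits that left out 1 library, but Cebpa from 2W to 6W only without a 3M library (adjusted p up to 0.36).

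Of 12 genes of adipocyte precursors and stroma, 3 rose from 2W to 3M and 2 from 2W to 6W. Ly6a, the surface protein Sca-1 of stromal precursors and of many lymphocytes, was at 32.9 and 28.1 CPM at 2W, 59.6 and 63.7 CPM at 6W, and 104 and 91.0 CPM at 3M (2W to 3M 1.67, adjusted p = 0.0048). Pdgfra, a receptor of mesenchymal cells including adipocyte precursors, was at 7.20 and 9.62 CPM, then 16.4 and 13.6 CPM, then 24.3 and 19.5 CPM (1.38, adjusted p = 0.013), and was not called without the first 2W library (adjusted p = 0.068). The median of these 12 genes from 2W to 3M was 0.22, and 4 were negative. Dlk1, a marker of preadipocytes, was at 1.45 and 1.10 CPM at 2W and at 0.30 and 0.58 CPM at 3M (-1.49, adjusted p = 0.12), and Dpp4, a surface peptidase, at 117 and 150 CPM and then 106 and 79.7 CPM (-0.52, adjusted p = 0.13). For both, the 3M libraries lay wholly below those of 2W, as for 24.0% of all genes. DESeq2 called 1 gene of the list lower and 3 higher.

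Of 7 receptors for adipokines and insulin, 1 rose in each of these comparisons. Lepr, the leptin receptor, was at 0.88 and 0.74 CPM at 2W, 4.31 and 2.82 CPM at 6W, and 6.55 and 5.64 CPM at 3M (2W to 6W 2.13, adjusted p = 0.041, and 2W to 3M 2.90, adjusted p = 0.0073). The call from 2W to 3M held in all 6 fits that left out 1 library, and that from 2W to 6W only without a 3M library (adjusted p up to 0.29). The adiponectin receptors Adipor1 (73.5 to 90.7 CPM) and Adipor2 (152 to 194 CPM) were not called by edgeR. Both 3M libraries of each were above both of 2W, as for 27.7% of all genes. The log2 fold change between these ages was 0.17 for Adipor1 (edgeR unadjusted p = 0.20, adjusted p = 0.41). For Adipor2 it was 0.29 (unadjusted p = 0.026, adjusted p = 0.12). From 2W to 3M DESeq2 called 3 of the 7 receptors higher.

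Of 6 fatty acid synthesis genes, 2 rose from 2W to 3M. Scd1, the desaturase that makes monounsaturated fatty acids, was at 42.1 and 55.6 CPM at 2W, 464 and 470 CPM at 6W, and 1802 and 429 CPM at 3M (4.51, adjusted p = 0.012). Its second 3M library was below both 6W libraries. Fasn, fatty acid synthase, was at 420 and 319 CPM, then 532 and 630 CPM, then 1732 and 752 CPM (1.75, adjusted p = 0.032). The call of Scd1 was lost without either 2W library (adjusted p up to 0.080) and that of Fasn without any 2W or 6W library (up to 0.13).

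**Figure D5:**
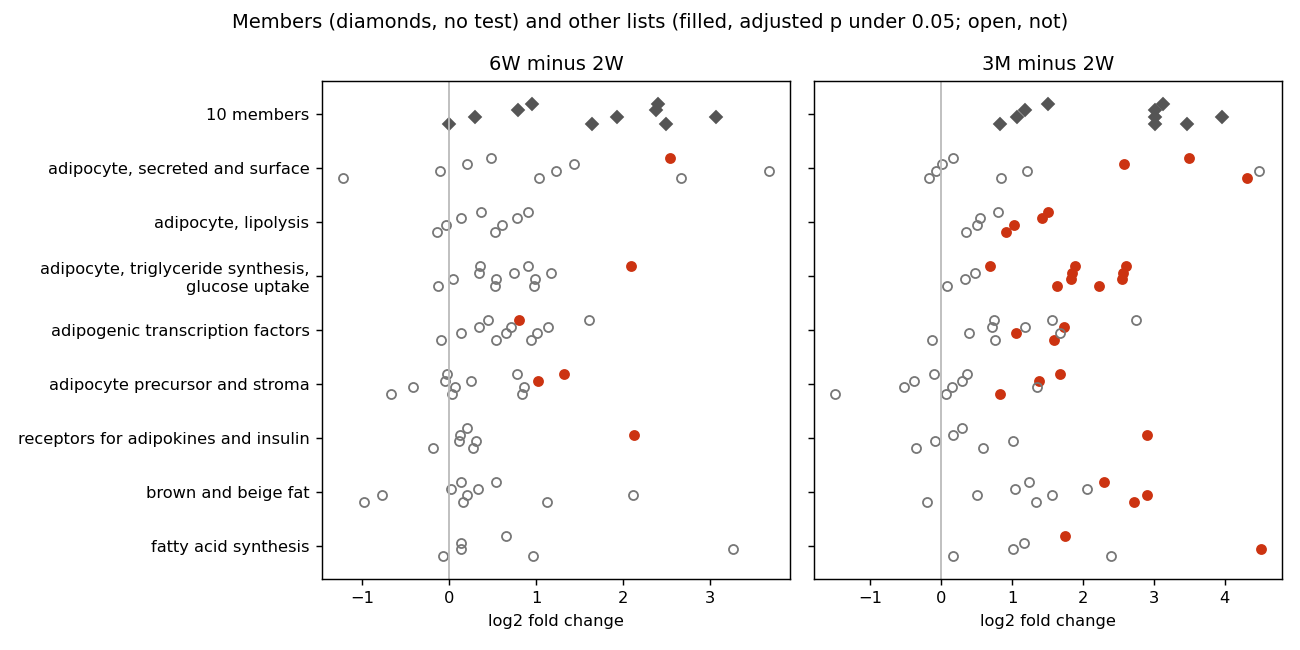
Log2 fold changes of the 10 members and of 77 genes in 8 other lists, for 6W minus 2W and 3M minus 2W. Diamonds are the members, which carry no test, filled circles are genes at an adjusted p under 0.05 and open circles the others, with 6 filled circles in the left panel and 28 in the right.

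Brown and beige fat genes were followed beside the white ones. Of the 10, 3 rose from 2W to 3M, among them Elovl3 (log2 fold change 2.90, adjusted p = 0.020) and Cox8b (2.72, adjusted p = 0.043). Elovl3, a fatty acid elongase, was at 0.32 and 0.25 CPM at 2W, 0.19 and 0.09 CPM at 6W, and 2.10 and 2.15 CPM at 3M. Since its 2W and 6W libraries held only 2 to 5 counts each, Elovl3 passed the filter on low counts through the 3M libraries alone, where it had to be higher to be tested. Cox8b, a subunit of cytochrome c oxidase, was at 0.13 and 0.55 CPM, then 1.21 and 1.76 CPM, then 2.65 and 1.92 CPM. Cox8b was called in 0 of the 6 fits that left out 1 library (adjusted p 0.055 to 0.12) and Elovl3 in 1, that without the first 3M library.

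The brown fat list varied most at 2W. Ucp1, the uncoupling protein of brown fat, was at 4.42 and 34.4 CPM at 2W, 15.3 and 27.9 CPM at 6W, and 66.5 and 48.0 CPM at 3M, so that the second 2W library was above both 6W libraries. At 2W, 9 of 10 brown fat genes were higher in the second library (median log2 difference, first minus second, -1.15). Of the 10 white adipocyte genes, Adipoq, Plin1, Cidec, Cd36, Lpl and Pparg were higher in that library, and Lep, Cfd, Plin4 and Fabp4 were lower in it. The part of brown fat in these differences was not tested.

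Markers of other cells were counted beside the 10 genes. Macrophage markers summed to 340 to 389 CPM at 2W, 718 to 774 CPM at 6W and 786 to 819 CPM at 3M. From 2W to 6W edgeR called 2 of 10 higher, DESeq2 8 and limma 5, 9 had an unadjusted p under 0.05, and for the same number the 6W libraries lay wholly above those of 2W (28.0% of all genes), with a median log2 fold change of 0.91. From 2W to 3M 7 rose by edgeR and 8 by either other tool, with Lyz2 at 141 and 131 CPM at 2W and 379 and 313 CPM at 3M (1.35, adjusted p = 0.0056) and C1qb at 52.6 and 42.1 CPM and 92.1 and 127 CPM (1.21, adjusted p = 0.014). Without either 2W library C1qb was not called (adjusted p up to 0.088). No defining marker was at 0. At 3M 8 of 10 macrophage markers were lower in the first library, in which the 10 adipocyte genes were higher. Macrophages use Pparg, Cd36, Lpl and Fabp4, and their part in these values was not tested.

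Endothelial markers summed to 247 and 252 CPM at 2W, 241 and 231 CPM at 6W, and 214 and 214 CPM at 3M. From 2W to 3M the log2 fold change was positive for 5 of the 10 and negative for 5. In each comparison edgeR called 0 of 10, with 3 at an unadjusted p under 0.05 from 2W to 3M, 1 lower by DESeq2 and 0 by limma, and the most abundant were Pecam1 (136 to 180 CPM) and Cdh5 (16.9 to 28.2 CPM). Of 8 fibroblast markers, 2 rose and 2 fell from 2W to 3M. Dcn rose (1.44, adjusted p = 0.018, but up to 0.099 without either 2W library) and Col3a1 fell (-1.23, adjusted p = 0.0079). The sum was 479 to 529 CPM at 2W and 6W and 403 and 305 CPM at 3M.

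Thymocyte markers moved the other way. Their sum, to which Rag1 gave the part stated above, went from 15920 and 17545 CPM at 2W to 12652 and 12589 CPM at 3M. From 2W to 3M DESeq2 called 6 of the 10 lower and limma 1, and neither called any higher. edgeR called 4 lower and 0 higher, where 3.09% of all genes fell. The 4 included Ptcra (-0.85, adjusted p = 0.029) and Cd4 (-0.53, adjusted p = 0.024). Both calls were kept in 1 of 6 fits that left out 1 library. Of 10 thymic epithelial markers, DESeq2 called 3 higher and 1 lower, and limma 2 higher and 0 lower. edgeR called 2 higher, among them Ly75 (0.71, adjusted p = 0.014), and 1 lower, Foxn1 (-0.82, adjusted p = 0.047). Ly75 was called in 2 and Foxn1 in 0 of those fits. Of 6 B cell markers 1 rose, Cd22 (1.79, adjusted p = 0.0062).

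Tissue that lies close to the thymus was followed by 7 markers, of which Pth, the hormone of the parathyroid gland, rose from 2W to 3M. It was at 1.39 and 0.67 CPM at 2W, 3.29 and 1.98 CPM at 6W, and 8.60 and 17.9 CPM at 3M (3.68, adjusted p = 0.012), and was not called without either 2W library (adjusted p up to 0.068). The sum of the 7 markers was 11.8 to 13.5 CPM at 2W, 23.2 to 27.9 CPM at 6W and 30.8 to 33.0 CPM at 3M. Pth was higher in the second 3M library. Of the 5 markers tested, 3 were higher in the first (median log2 difference, first minus second, 0.17). The part of attached tissue in the adipocyte values was not tested. Skeletal muscle markers summed to 8.15 to 13.6 CPM over 8, of which Mylpf gave 4.39 to 9.79 CPM. The part of muscle in the adipocyte values was not tested. edgeR called 0 of the 4 muscle and 0 of the 6 red blood cell markers tested in any comparison. Between 2W and 3M, 3 muscle and 0 red blood cell markers had an unadjusted p under 0.05, and DESeq2 called 1 muscle marker lower and 0 red blood cell markers. From 6W to 3M the red blood cell markers had a median log2 fold change of 1.71, with 3 of 6 at an unadjusted p under 0.05 and 1 called higher by DESeq2, and 2 of the 4 muscle markers had such a p.

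The genes most like the 10 in pattern were sought among the 1251 other genes whose log2 CPM ranged over at least 2 between libraries. The measure was Pearson's correlation over the 6 libraries with the mean z-scored log2 CPM of the 10 genes. The highest were Ntrk2 (0.996), Car5b (0.995), Hgf (0.995), Cdo1 (0.994), Pcx (0.994), Igkv17-127 (0.992), A530016L24Rik (0.990), Thrsp (0.990), Acacb (0.990) and Ptgdr (0.990). Pcx encodes pyruvate carboxylase and was at 10.9 and 12.9 CPM at 2W, 30.1 and 29.3 CPM at 6W, and 93.4 and 32.6 CPM at 3M. Values over 0.9 were reached by 15.7% of the 1251 genes. The points are 6 libraries that share age and depth, and no test was made. Igkv17-127 and Ptgdr rest on 1 to 27 counts per library.

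Among the 10 genes themselves, the correlation of each with the mean of the other 9 was highest for Plin1 (0.98), Adipoq (0.98) and Fabp4 (0.96). It was lowest for Pparg (0.86) and Cd36 (0.74), the genes whose 2W and 6W libraries overlapped.

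The rule that chose the 10 genes used no small RNA values, but the miRNA list, too, was chosen with earlier results of these data known. A list of 18 miRNAs was tested, 4 of which are known to repress Pparg (miR-27a-3p, miR-27b-3p, miR-130a-3p and miR-130b-3p) and 14 of which are known from fat tissue. The mature sequences of the Pparg-targeting miRNAs, and of miR-196a-5p and both arms of miR-335, are given because the results turn on them (RefSeq, GRCm38.p6). Capitals mark the seed, bases 2 to 8.
mmu-miR-27a-3p: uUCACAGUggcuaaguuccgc
mmu-miR-27b-3p: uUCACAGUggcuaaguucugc
mmu-miR-130a-3p: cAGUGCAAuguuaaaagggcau
mmu-miR-130b-3p: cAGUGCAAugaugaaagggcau
mmu-miR-196a-5p: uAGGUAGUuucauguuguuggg
mmu-miR-335-5p: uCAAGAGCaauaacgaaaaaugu
mmu-miR-335-3p: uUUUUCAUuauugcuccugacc

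The miR-27 pair shares one seed and the miR-130 pair another. Of the 4, none rose or fell with both tools. miR-27b-3p was abundant, at 25959 and 28966 CPM at 2W, 33076 and 37184 CPM at 6W, and 30502 and 36271 CPM at 3M, and was not called from 2W to 3M (log2 fold change 0.28, adjusted p = 0.29). miR-27a-3p was at 2105 and 1922 CPM, then 2255 and 2511 CPM, then 3411 and 2658 CPM (2W to 3M 0.59, adjusted p = 0.051, and 0.019 with DESeq2).

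The other seed was scarcer. miR-130a-3p was at 21.3 and 26.2 CPM at 2W, 10.2 and 13.6 CPM at 6W, and 15.3 and 11.9 CPM at 3M. All libraries of 6W and 3M were below those of 2W, and edgeR called it lower from 2W to 6W (-0.999, adjusted p = 0.040) and from 2W to 3M (-0.80, adjusted p = 0.039), but DESeq2 did not (0.059 and 0.092). miR-130b-3p was at 104 and 143 CPM, then 71.1 and 87.4 CPM, then 73.9 and 75.6 CPM (2W to 3M -0.72, adjusted p = 0.043, and 0.055 with DESeq2). For the same ages miR-130a-3p was called in 0 and miR-130b-3p in 1 of the 6 fits that left out 1 library.

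Of the 14 adipose-linked miRNAs, 3 rose and 2 fell from 2W to 3M, and 2 fell from 2W to 6W. miR-196a-5p, which is known to promote beige adipocytes, was at 11.0 and 8.82 CPM at 2W, 14.2 and 19.3 CPM at 6W, and 32.6 and 24.5 CPM at 3M (2W to 3M 1.52, adjusted p = 0.0031). miR-335-5p was at 141 and 156 CPM, then 24.1 and 22.9 CPM, then 13.9 and 12.1 CPM, a fall that was called in both comparisons (-2.66, adjusted p = 0.00028, and -3.51, adjusted p = 3.11e-05). Its other arm, miR-335-3p, was at 22.9 and 32.4 CPM, then 7.60 and 9.64 CPM, then 8.02 and 9.06 CPM (2W to 3M -1.70, adjusted p = 0.0020). These 3 were called from 2W to 3M in all 6 fits that left out 1 library and with DESeq2. miR-143-3p (0.75, adjusted p = 0.025) and miR-455-3p (0.73, adjusted p = 0.030) also rose from 2W to 3M. They kept the call in 2 and 3 of those fits.

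Over all 822 miRNAs tested, 8.64% were called from 2W to 6W (2.31% higher and 6.33% lower), 0.852% from 6W to 3M (0.487% and 0.365%) and 29.9% from 2W to 3M (13.5% and 16.4%), and the median log2 fold change from 2W to 3M was -0.12. In the list of 18 these counts were 3, 0 and 7. For 6W to 3M, 4 of the 18 had an unadjusted p under 0.05 and DESeq2 called 1.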

How the data were processed

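Long RNA and small RNA of the same thymus series were analysed in 12 libraries, grouped by the age in their labels. The deposited mRNA table of the authors gives FPKM and, per transcript, estimated counts, while their circRNA table gives junction counts and their miRNA table tag counts. The quantifier, the annotation and the circRNA caller are not given in the sources used here, and the submitters' processing notes name Bowtie 0.12.2 and the build mm8 without a role. The long RNA libraries were strand-specific (dUTP), and the small RNA libraries were made by adapter ligation. In the deposited mRNA table, 84.1% of the estimated counts are not whole. The lncRNA table was not used.

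Transcripts were summed by gene symbol, joining spellings that differ only in case (665 genes), and the sums were rounded. The 372 transcripts without a symbol, with 0.894% of the counts, were left out. Genes and miRNAs that passed filterByExpr were tested with edgeR 4.0.16 (TMM, quasi-likelihood F test, age as the only term, all 6 libraries, R 4.3.3), with DESeq2 1.42.0 and limma 3.58.1 as alternatives. The SE of a log2 fold change is its size divided by the square root of the F statistic. Adjusted p-values are those of Benjamini and Hochberg. The tests were tested on simulated data. Log2 CPM used a prior count of 2. Figures were drawn from Python 3.11.15 with matplotlib 3.10.9.

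The 10 genes, the other lists and the named genes were chosen with earlier results of these data known. Named are the 10 genes, the 2 called genes of each other list with the largest absolute log2 fold change (or, with none called, its 2 most abundant genes), and the 10 genes most like the 10 in pattern. A few further genes are named for counts or levels and were chosen after their values were seen. The deviations of libraries with the same replicate number had correlations of -0.06, -0.18 and 0.35 for genes and 0.22, -0.15 and -0.07 for miRNAs. Since not all were over 0.1, the numbers were not taken as pairs. Whether a replicate is 1 mouse or a pool is not given in the sources used here. A two-sided exact permutation test on 2 against 2 libraries could reach no p below 0.333. Counts without molecular identifiers do not count independent molecules.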

Additional observations from a re-analysis of the deposited data

How the results depend on the processing

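The directions of the 10 genes between 2W and 3M, and of 9 of them between 2W and 6W, did not change under any alternative run. The log2 fold change of Cd36 from 2W to 6W was -0.37 without the first 2W library and 0.50 without the second, in place of -0.01. With log2(FPKM + 0.1) their median from 2W to 3M was 2.41 in place of 3.02, since the added 0.1 pulls in scarce genes such as Lep. Leaving out each library in turn gave medians from 1.68 to 1.93 from 2W to 6W, 0.31 to 1.27 from 6W to 3M and 2.13 to 3.32 from 2W to 3M.

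The number of called genes among the 77 of the other lists depended on the tool. From 2W to 6W it was 6, and 15 with DESeq2, 11 with total counts as the only scaling, 11 without the filter, 14 in a fit of the 4 libraries compared and 2 with sums by the exact symbol. From 6W to 3M it was 0, and 7 with DESeq2. From 2W to 3M it was 28, and 16 in the fit of 4 libraries. Leaving out each library gave 0 to 14, 0 to 5 and 5 to 30 for the 3 comparisons in this order. For all genes from 2W to 6W, the 257 calls became 888 with DESeq2, 394 with total counts, 467 without the filter, 662 with 4 libraries, 124 by exact symbol and 402 on log2(FPKM + 0.1), and for 6W to 3M the 1 call became 341, with DESeq2, 19 without the filter, and 0 with 4 libraries, by exact symbol or on log2(FPKM + 0.1). From 2W to 3M the 1629 calls became 663 with 4 libraries. Leaving out each library gave 0 to 658, 0 to 11 and 239 to 1741. The cause of these differences was not tested.

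With the replicate number as a block, the calls among the 77 genes became 0 from 2W to 6W, in place of 6, and 19 from 2W to 3M, in place of 28. Those of all genes became 5 from 2W to 6W, 0 from 6W to 3M and 742 from 2W to 3M. What libraries with the same number share is not given in the sources used here, and the reason for the lower counts was not tested.

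Of the 18 miRNAs, 1 was called from 6W to 3M with DESeq2 and 1 without the filter, in place of 0. Over all miRNAs, 7 calls from 6W to 3M became 44 with DESeq2 and 47 without the filter, and 71 from 2W to 6W became 109 without the filter. Leaving out each library gave 1 to 3, 0 to 0 and 3 to 7 calls in the list and 3 to 105, 0 to 22 and 158 to 208 over all. Lep, Fabp4 and Lpl turned negative from 6W to 3M without the first 3M library, and some uncalled miRNAs near 0 changed sign with DESeq2, such as miR-148a-3p from 2W to 6W (-0.03 to 0.06). Depth limits Lep, with 4 and 6 counts at 2W.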

Other observations

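Among the miRNAs of the adipose list that edgeR did not call, miR-193b-3p and miR-365-3p, which are known as a cluster enriched in brown fat, varied between libraries of one age, and they are given here because of their values. miR-193b-3p was at 4.32 and 16.0 CPM at 2W, 6.91 and 8.76 CPM at 6W, and 32.3 and 10.4 CPM at 3M (2W to 3M log2 fold change 1.08, edgeR adjusted p = 0.20, but 0.0021 without the filter on low counts, 0.029 without the second 2W library and 0.040 without the second 3M library). miR-365-3p was at 35.9 and 75.1 CPM, then 38.8 and 38.6 CPM, then 76.7 and 36.0 CPM (0.03, adjusted p = 0.97). Both were higher in the second 2W library and in the first 3M library, as were Cidea (1.52 and 6.99 CPM at 2W, 24.3 and 11.2 CPM at 3M), Ucp1 (4.42 and 34.4 CPM, 66.5 and 48.0 CPM) and Cpt1b (0.82 and 6.92 CPM, 12.2 and 7.43 CPM) among the long RNA libraries of the same numbers. These differences were not particular to brown fat genes, since Adipoq, Plin1, Cidec, Cd36, Lpl and Pparg had them too. Of the 12 triglyceride synthesis and glucose uptake genes, 2 were higher in the first 2W library and 11 in the first 3M library. At 6W Cidea (7.85 and 10.7 CPM), Ucp1 (15.3 and 27.9 CPM) and Cpt1b (3.44 and 4.45 CPM) were higher in the second library, whereas miR-365-3p did not differ in this way. Whether a small RNA and a long RNA library with the same number come from the same thymus is not given in the sources used here, and with 2 libraries at each age the likeness has no test.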
